A study of Mus musculus with 12 samples.

Results

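The endoplasmic reticulum (ER) stress and ATF4 target genes described here were 38 genes chosen by name, namely the sensors and transcription factors of the unfolded protein response, the amino acid and feedback genes driven by ATF4, and the ER chaperones, folding enzymes and degradation factors. A gene was taken as measured where the array table held a probe set annotated with its symbol and no other, and the brightest such probe set over all arrays stood for the gene. By that rule 36 of the 38 members were measured, of 22180 genes in all. Pycr1 had no such probe set, and Pdia4 shared its probe set with Mir704. RNA came from brown adipose tissue of male mice, 10 weeks old, in 4 groups of 3 arrays: Zbtb7b knockout (KO) mice after 4 h at 4 °C, wild-type (WT) mice after 4 h at 4 °C, KO mice at 22 °C and WT mice at 22 °C. Zbtb7b is a zinc finger transcription factor. How the knockout allele was made, in which cells it acts, and the strain are not given in the sources used here.

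Values below are the authors' RMA signals on the log2 scale, where a difference of 1 is a doubling of signal. A log2 signal is not scaled for probe behaviour, so levels are compared between arrays and never between genes. The median signal of an array lay between 2.63 and 2.83, arrays of a group correlated across probe sets at r = 0.970 to 0.985, and the precision rests on how many arrays there are. The titles speak of biological replicates, whereas a description field numbers pools, so the number of animals behind an array is unknown and p-values describe the spread between these 12 samples, which may be partly technical. The same description field named liver and another knockout. Against that field, Ucp1 gave 11.55 to 12.95 on the 12 arrays and albumin 1.20 to 2.75, and a list of hepatocyte markers averaged 3.24 to 3.48. Zbtb7b itself gave 2.96 to 3.62 on KO arrays and 4.26 to 4.76 on WT arrays, and whether its probes lie inside the deleted part is unknown.

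A cell meets an overload of unfolded protein in its ER with sensors in the ER membrane. IRE1 (gene Ern1) splices the Xbp1 message into an active form, ATF6 is cut to release a transcription factor, and PERK (gene Eif2ak3) phosphorylates the initiation factor eIF2, which lowers protein synthesis overall while the ATF4 message is translated. Other kinases that sense amino acid shortage, haem shortage or double-stranded RNA act on the same factor, so ATF4 targets can move with or without ER stress genes. ATF4 drives amino acid synthesis, amino acid uptake and feedback genes, whereas ATF6 and XBP1 drive chaperones and ER-associated degradation. Brown fat burns fuel for heat on cold exposure through UCP1, and its adipocytes secrete proteins and remodel membranes while they do so.

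Cold exposure moved most of these genes. Averaged over both genotypes, 24 members rose, 4 fell and 8 did not pass at an adjusted p of 0.05. That is 77.8% of the 36 members, against 27.2% of all genes tested, of which 12.9% rose and 14.3% fell. The members were brighter than most of the array: 31 of the 36 had a mean signal of at least 5, whereas array medians lay between 2.63 and 2.83. Here and below, shares of all genes include the dim ones, and no share among genes of like signal is given. The part of signal level in the gaps between members and all genes was not tested. The median cold difference of the members was 0.47, against -0.01 over all genes. All 28 calls held in each of the 12 leave-one-array-out fits, and a 1.5-fold minimum kept 20 of them. In KO mice 15 members rose and 4 fell, which is 52.8% of the members against 19.2% of all genes (8.34% up, 10.8% down), with a median of 0.34 against 0.00. In WT mice 19 rose and 1 fell, which is 55.6% against 17.4% (9.39% up, 7.98% down), with a median of 0.58 against -0.02. In these bulk samples, fewer cells of a type and less RNA per cell cannot be told apart.

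Other cells in the tissue varied beside these results. Skeletal muscle markers averaged 4.66 to 8.44 in KO cold, 5.36 to 7.91 in WT cold, 3.49 to 8.68 in KO at room temperature and 3.21 to 6.58 in WT at room temperature. Of the 14, 0 passed in any comparison, but the groups were not balanced. All 14 lay above 0 for cold in WT (median 2.81) and for KO minus WT at room temperature (median 2.26). For cold in KO 13 lay above 0 (median 0.38), and for KO minus WT in the cold 8 did (median 0.16). With the muscle marker mean per array as a covariate, 30 members passed in the averaged cold comparison, 20 in KO and 21 in WT, and the WT calls of Psat1 and Manf were lost. Neutrophil markers averaged 2.63, 3.13 and 4.91 on KO cold replicates 1, 2 and 3, against 2.49 to 3.02 in WT cold, 2.72 to 3.28 in KO at room temperature and 2.42 to 2.62 in WT at room temperature. With it as a covariate, a choice made after seeing the data, 20 members passed in the KO cold comparison. Macrophage markers averaged 6.86 to 7.58 in KO cold, 6.88 to 7.17 in WT cold, 7.12 to 7.41 in KO at room temperature and 6.29 to 6.67 in WT at room temperature. With cold 3 of 8 rose over both genotypes, against 12.9% of all genes. The part of the macrophage markers in the results was not tested. KO cold replicate 1 gave the lowest value of its group for 26 of the 36 members, and KO cold replicate 2 gave the highest for 21.

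**Figure D1:**
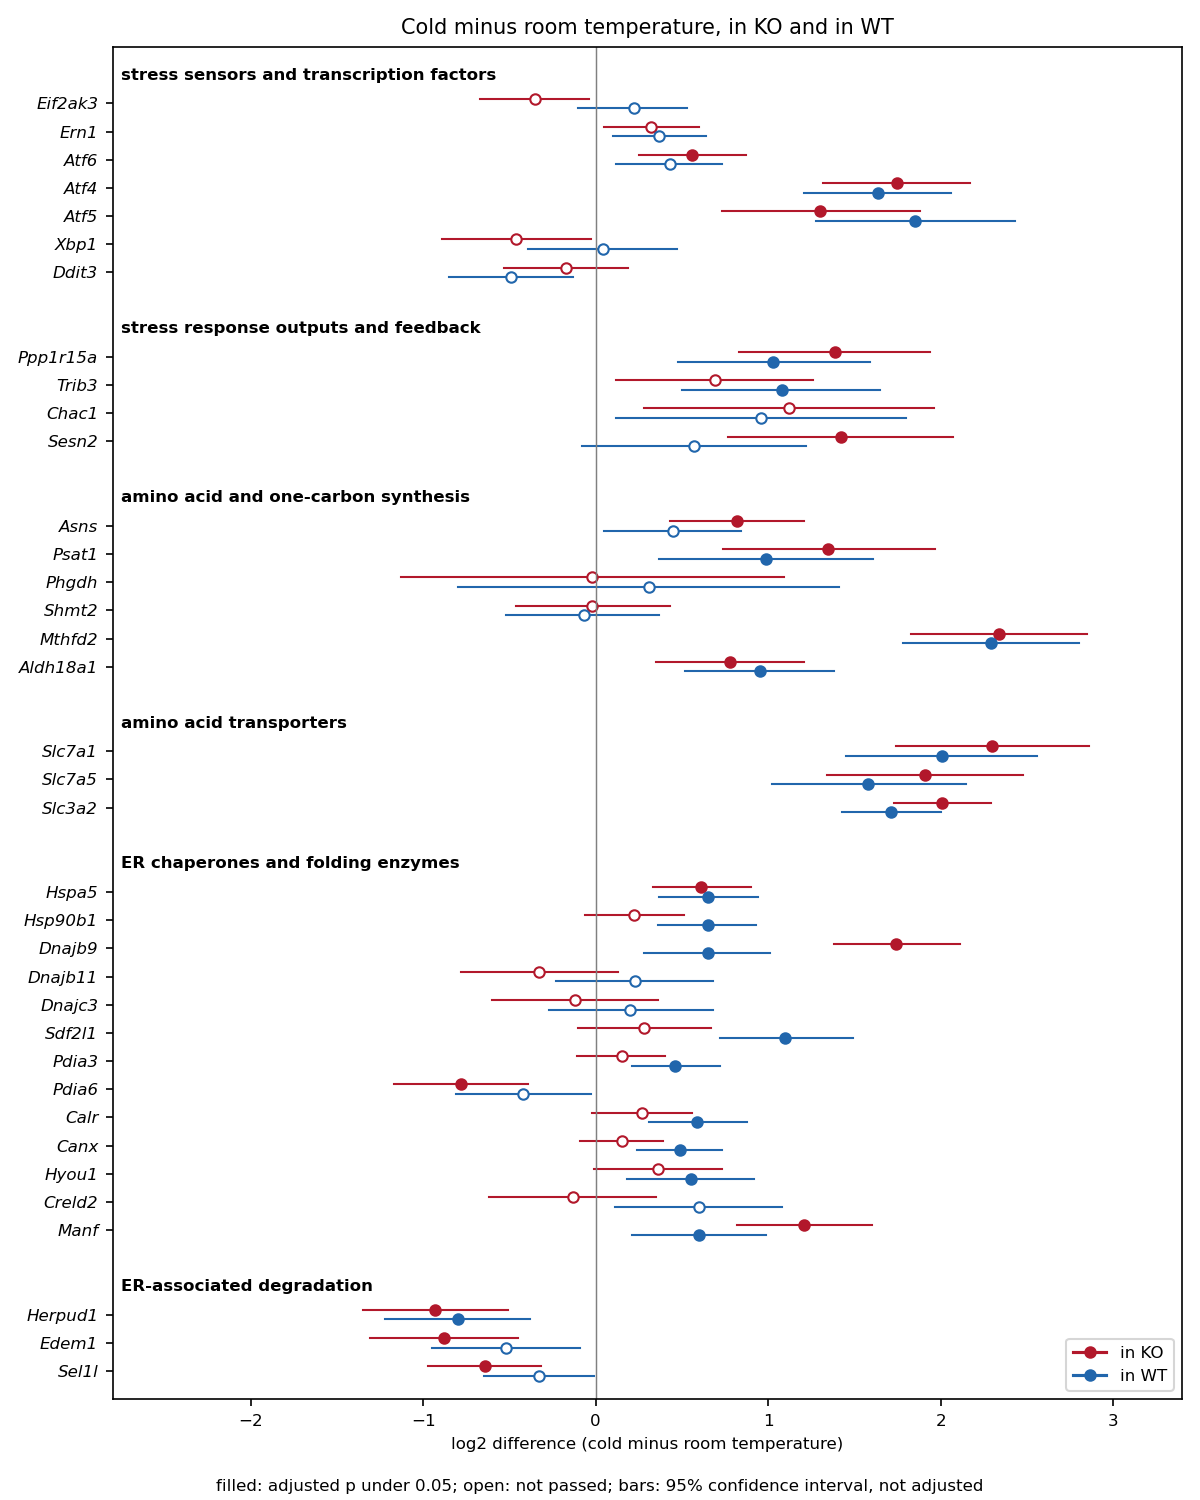
Cold minus room temperature for each measured member, on the log2 scale, in KO mice and in WT mice. Points are differences of group means, bars are 95% confidence intervals that are not adjusted, filled points passed at an adjusted p under 0.05, and genes are grouped by role. The amino acid transporters lie between 1.58 and 2.30 in both genotypes, and the 3 ER-associated degradation genes all lie below 0.

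Among the stress sensors and transcription factors, Atf4, Atf5, Atf6 and Ern1 rose over both genotypes and none of the 7 fell. Of all genes 12.9% rose and 14.3% fell. Atf4, the transcription factor at the centre of the integrated stress response, had log2 signals of 6.95, 7.45 and 7.14 in KO cold and 7.42, 6.91 and 6.91 in WT cold, against 5.46, 5.26 and 5.59 in KO at room temperature and 5.60, 5.62 and 5.11 in WT at room temperature. Every cold array lay above every room temperature array. The rise was 1.75 ± 0.20 (SE) in KO, or 3.35-fold (adjusted p = 9.75e-05), and 1.64 ± 0.20 in WT, or 3.11-fold (adjusted p = 0.000174). The KO rise minus the WT rise was 0.11, with a 95% interval of -0.49 to 0.71.

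Atf5, a related factor that is itself translated under stress, had 8.21, 9.14 and 7.93 in KO cold and 9.07, 8.85 and 9.06 in WT cold, against 7.36, 7.18 and 6.84 in KO at room temperature and 7.43, 7.03 and 6.96 in WT at room temperature. Cold arrays again stood above all room temperature arrays, with KO cold spread more widely than WT cold. It rose by 1.30 ± 0.26 in KO (adjusted p = 0.00434) and by 1.85 ± 0.26 in WT (adjusted p = 0.000538). Atf6, the sensor that is cut to a transcription factor, had 8.50, 8.74 and 8.85 in KO cold and 8.53, 8.30 and 8.25 in WT cold, against 7.99, 8.08 and 8.34 in KO at room temperature and 7.97, 7.85 and 7.98 in WT at room temperature. Within each genotype the cold and room temperature arrays did not overlap. Averaged over genotypes the rise was 0.49 ± 0.10 (adjusted p = 0.00252). In KO it was 0.56 ± 0.14 (adjusted p = 0.0149), and in WT it was 0.43 ± 0.14 (adjusted p = 0.0589). The KO call was lost without KO room temperature replicate 1 (0.0598) or replicate 2 (0.0531). It was also lost with the 6 arrays of the comparison alone (0.0656), with median centring (0.0661) or with a 1.5-fold minimum.

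Of the other sensors, Ern1 passed over both genotypes and Eif2ak3 passed in no cold comparison. Ern1, which encodes IRE1, had 7.06, 7.26 and 7.04 in KO cold and 7.10, 6.82 and 7.08 in WT cold, against 6.92, 6.77 and 6.70 in KO at room temperature and 6.64, 6.58 and 6.67 in WT at room temperature. Its rise of 0.35 ± 0.09 passed over both genotypes (adjusted p = 0.0104), with 0.32 in KO (adjusted p = 0.0961) and 0.37 in WT (adjusted p = 0.0626). Eif2ak3, which encodes PERK, had 5.71, 5.67 and 5.47 in KO cold and 6.14, 5.87 and 5.90 in WT cold, against 5.81, 5.91 and 6.18 in KO at room temperature and 5.69, 5.64 and 5.93 in WT at room temperature. The KO cold arrays lay below those of WT cold and KO at room temperature and overlapped those of WT at room temperature. The averaged difference was -0.07 ± 0.10 (adjusted p = 0.707), with -0.35 in KO (adjusted p = 0.118) and 0.22 in WT (adjusted p = 0.365, limma).

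Xbp1, whose gene-level signal does not separate spliced from unspliced message, had 8.48, 8.87 and 9.23 in KO cold and 8.62, 9.08 and 8.80 in WT cold, against 9.39, 9.43 and 9.14 in KO at room temperature and 8.81, 9.0 and 8.57 in WT at room temperature. Cold and room temperature arrays overlapped in both genotypes. The cold difference over both genotypes was -0.21 ± 0.14 (95% interval -0.51 to 0.09, adjusted p = 0.322). By genotype it was -0.46 in KO (adjusted p = 0.136) and 0.04 in WT (adjusted p = 0.935, limma). Ddit3, which encodes CHOP, a factor linked to cell death under lasting ER stress, had 6.58, 6.54 and 6.36 in KO cold and 5.87, 5.66 and 6.23 in WT cold, against 6.80, 6.67 and 6.53 in KO at room temperature and 6.17, 6.54 and 6.52 in WT at room temperature. Its difference was -0.33 ± 0.12 (95% interval -0.58 to -0.08, adjusted p = 0.0536), and the WT cold arrays were the lowest apart from 1 array at 6.23.

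The feedback and output genes of the ATF4 arm all rose over both genotypes, 4 of 4, where 12.9% of all genes rose. Ppp1r15a, which encodes GADD34 and brings the phosphatase that reverses eIF2 phosphorylation, had 6.25, 7.19 and 7.61 in KO cold and 6.34, 6.41 and 6.36 in WT cold, against 5.49, 5.67 and 5.73 in KO at room temperature and 5.35, 5.25 and 5.41 in WT at room temperature. No cold array overlapped a room temperature array, and KO cold replicate 3 was the highest. Ppp1r15a rose by 1.39 ± 0.26 in KO (adjusted p = 0.00239) and by 1.03 ± 0.26 in WT (adjusted p = 0.0147). The WT call was lost without WT room temperature replicate 2 (0.0501).

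Sesn2, an inhibitor of mTORC1 signalling, had 6.85, 7.62 and 8.23 in KO cold and 6.99, 6.99 and 6.86 in WT cold, against 6.48, 5.78 and 6.19 in KO at room temperature and 6.78, 6.14 and 6.21 in WT at room temperature. KO cold replicate 3, with the highest Sesn2 and Ppp1r15a, was also the array with the highest neutrophil markers. Sesn2 rose by 1.42 ± 0.30 in KO (adjusted p = 0.00543). In WT the difference was 0.57 ± 0.30 (adjusted p = 0.239), and the KO rise minus the WT rise, 0.85 ± 0.42, did not pass (adjusted p = 0.515).

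Trib3, a pseudokinase that restrains ATF4, had 4.28, 5.30 and 4.42 in KO cold and 4.47, 4.95 and 4.91 in WT cold, against 3.66, 3.90 and 4.37 in KO at room temperature and 3.52, 3.67 and 3.90 in WT at room temperature. KO cold and KO room temperature overlapped, and the WT groups did not. The averaged rise was 0.88 ± 0.19 (adjusted p = 0.00325), with 0.69 ± 0.26 in KO (adjusted p = 0.0934) and 1.08 ± 0.26 in WT (adjusted p = 0.0137). The WT call was lost without WT cold replicate 2 (0.0559), WT cold replicate 3 (0.0549) or WT room temperature replicate 1 (0.0528). Chac1, a glutathione-degrading enzyme, rose by 1.04 ± 0.27 over both genotypes (adjusted p = 0.0123). It passed in neither genotype alone, with 1.12 ± 0.38 in KO (adjusted p = 0.0622) and 0.96 ± 0.38 in WT (adjusted p = 0.116, limma).

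Of the 6 enzymes of amino acid and one-carbon synthesis, 4 rose over both genotypes, against 12.9% of all genes. The 2 that did not pass were Phgdh and Shmt2. Mthfd2, the mitochondrial one-carbon enzyme, had 6.31, 7.0 and 5.95 in KO cold and 6.47, 6.09 and 6.22 in WT cold, against 4.28, 4.05 and 3.92 in KO at room temperature and 4.24, 3.82 and 3.84 in WT at room temperature. The gap between cold and room temperature arrays was wide in both genotypes. The rise was 2.34 ± 0.23 in KO, or 5.05-fold (adjusted p = 4.98e-05), and 2.29 ± 0.23 in WT, or 4.9-fold (adjusted p = 7.05e-05).

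Asns, which makes asparagine and is a classical ATF4 target, had 8.91, 9.33 and 9.29 in KO cold and 9.53, 9.42 and 9.27 in WT cold, against 8.18, 8.52 and 8.37 in KO at room temperature and 9.05, 8.59 and 9.24 in WT at room temperature. The KO room temperature arrays were the lowest of the 4 groups. Asns rose by 0.82 ± 0.18 in KO (adjusted p = 0.0069), and the WT difference was 0.45 ± 0.18 (adjusted p = 0.121).

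Psat1, of the serine pathway, had 4.79, 5.75 and 5.46 in KO cold and 4.84, 5.22 and 4.65 in WT cold, against 4.53, 3.90 and 3.50 in KO at room temperature and 3.91, 4.14 and 3.69 in WT at room temperature. Cold arrays of both genotypes lay above all room temperature arrays. Psat1 rose by 1.35 ± 0.28 in KO (adjusted p = 0.0052) and by 0.99 ± 0.28 in WT (adjusted p = 0.0307). The WT call was lost without WT cold replicate 1 (0.0718) or 2 (0.12), or WT room temperature replicate 1 (0.0763) or 3 (0.0991), and with the muscle marker covariate (0.0907).

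Aldh18a1, of the proline pathway, had 4.87, 5.84 and 5.20 in KO cold and 5.04, 5.12 and 4.90 in WT cold, against 4.58, 4.50 and 4.49 in KO at room temperature and 4.08, 4.01 and 4.10 in WT at room temperature. No group overlapped across temperature. Aldh18a1 rose by 0.78 ± 0.20 in KO (adjusted p = 0.0146) and by 0.95 ± 0.20 in WT (adjusted p = 0.00535). The KO value was 0.51 without KO cold replicate 2 (adjusted p = 0.0304), and the KO call was lost with the 6 arrays of that comparison alone (0.0795). Phgdh, the enzyme before Psat1 in serine synthesis, differed by 0.14 (95% interval -0.64 to 0.93) over both genotypes, and Shmt2, a mitochondrial serine-using enzyme, by -0.05 (95% interval -0.36 to 0.27).

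All 3 amino acid transporters rose with cold in both genotypes, where 5.66% of all genes rose in both. Slc3a2, the heavy chain shared by several transporters, had 11.94, 12.05 and 11.91 in KO cold and 11.97, 11.83 and 11.96 in WT cold, against 9.87, 9.89 and 10.10 in KO at room temperature and 10.39, 10.01 and 10.21 in WT at room temperature. It had the smallest p of the members, with a rise of 2.01 ± 0.13 in KO, or 4.03-fold (adjusted p = 2.56e-06), and of 1.71 ± 0.13 in WT, or 3.28-fold (adjusted p = 1.12e-05). Slc7a5, the light chain LAT1 that pairs with Slc3a2 to carry leucine and other large neutral amino acids, had 6.07, 6.64 and 7.02 in KO cold and 5.75, 5.47 and 5.70 in WT cold, against 4.75, 4.65 and 4.60 in KO at room temperature and 4.65, 3.86 and 3.66 in WT at room temperature. Cold arrays stood above room temperature arrays, and KO cold arrays above WT cold arrays. Slc7a5 rose by 1.91 ± 0.26 in KO (adjusted p = 0.000351) and by 1.58 ± 0.26 in WT (adjusted p = 0.00132).

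Slc7a1, a carrier of arginine and lysine, had 6.38, 7.12 and 7.10 in KO cold and 6.35, 5.80 and 5.42 in WT cold, against 4.22, 4.65 and 4.83 in KO at room temperature and 3.97, 3.76 and 3.82 in WT at room temperature. At each temperature the KO arrays lay above the WT arrays, by a margin of 6.38 against 6.35 at its narrowest in the cold. Slc7a1 rose with cold by 2.30 ± 0.26 in KO, or 4.92-fold (adjusted p = 9.36e-05), and by 2.01 ± 0.26 in WT, or 4.02-fold (adjusted p = 0.000261).

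**Figure D2:**
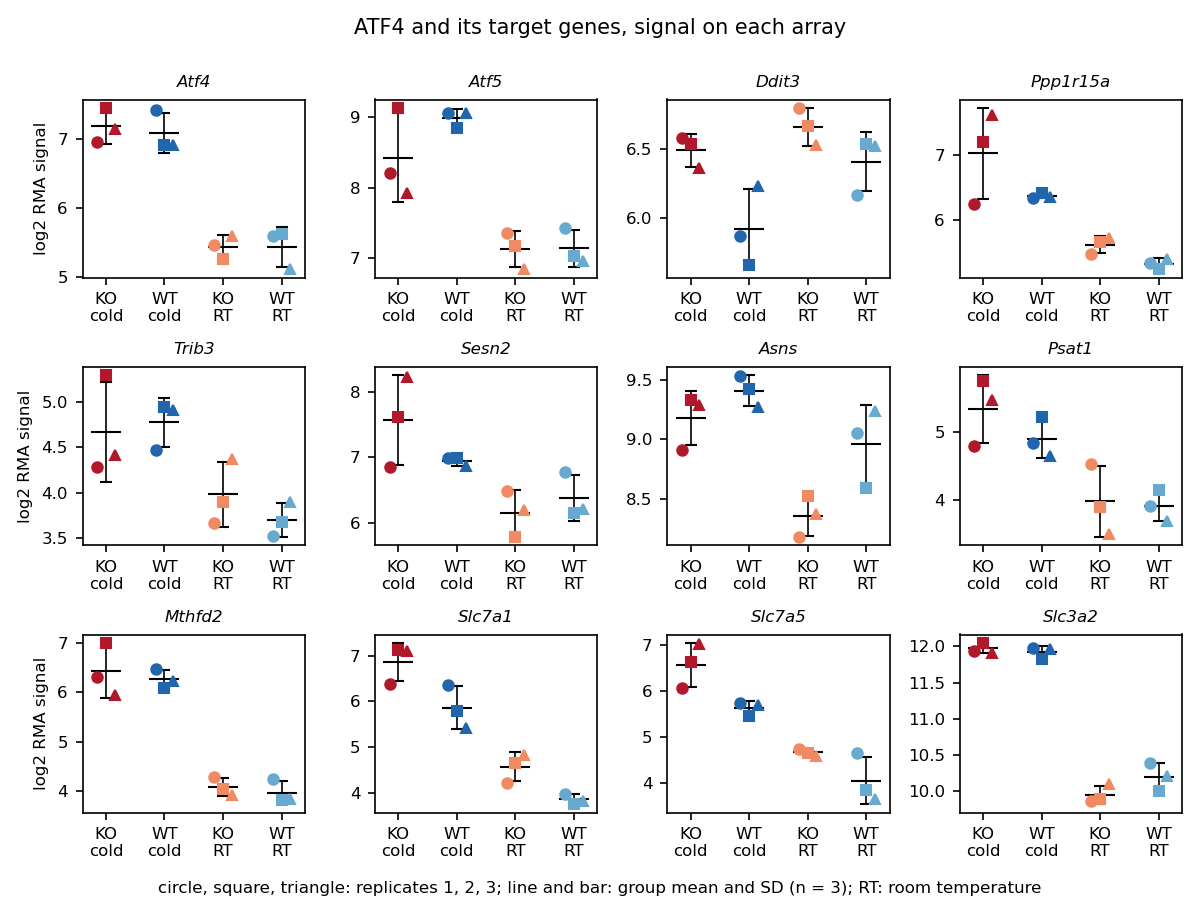
Log2 RMA signal of 12 genes of the ATF4 arm on each array, by group, with KO left of WT and cold left of room temperature (RT). Circles, squares and triangles are replicates 1, 2 and 3, and lines and bars are the group mean and SD (n = 3). Slc3a2 lies between 11.83 and 12.05 on the cold arrays, above all room temperature arrays, whereas Ddit3 is lowest in WT cold.

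The ER chaperones and folding enzymes rose with cold to a smaller degree, and more of them passed in WT than in KO. Over both genotypes 9 of 13 rose, 1 fell and 3 did not pass, with a median difference of 0.43. In KO 3 rose and 1 fell, with a median of 0.22, and in WT 9 rose and 0 fell, with a median of 0.59. Of all genes 12.9% rose and 14.3% fell over both genotypes, 8.34% and 10.8% in KO, and 9.39% and 7.98% in WT. A count that differs between genotypes does not show that the response did, and 0 of 13 passed the test of that difference, against 0.0271% of all genes. In it 5 of 13 had an unadjusted p under 0.05, against 10.5% of all genes, and the lowest adjusted p was 0.162 (limma). B and plasma cell markers, genes of cells that hold much ER, averaged 3.34 to 3.63 in KO cold and 3.59 to 3.83 in WT cold, against 3.60 to 3.72 in KO at room temperature and 3.78 to 4.12 in WT at room temperature. Their part in the chaperone values was not tested.

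Promoter stretches are printed for 4 genes of the ER arm that hold an ER stress element and for Asns, so that the letters can be read beside the different cold responses of these genes. The sequences are from RefSeq (GRCm38.p6), which held windows of 250 bases before to 50 after the start for 34 of the 38 members. Capitals mark the motif letters. The ER stress element ERSE was searched as CCAAT and CCACG with 9 bases of any kind between them, the ATF4 element CARE as TGATGNAA and the XBP1 element UPRE as TGACGTGG, each on both strands. None of these motifs is contained in another.
Hspa5, chr2:34772005-34772063, plus strand: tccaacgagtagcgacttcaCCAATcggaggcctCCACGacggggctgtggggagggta
Calr, chr8:84847055-84847113, minus strand: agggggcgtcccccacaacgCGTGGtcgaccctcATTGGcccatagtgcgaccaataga
Creld2, chr15:88819500-88819558, plus strand: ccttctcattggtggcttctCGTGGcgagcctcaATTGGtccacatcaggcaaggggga
Pdia6, chr12:17266471-17266529, plus strand: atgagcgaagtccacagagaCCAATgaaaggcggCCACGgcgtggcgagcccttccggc
Asns, chr6:7693210-7693252, minus strand: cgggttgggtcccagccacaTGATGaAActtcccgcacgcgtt

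ERSE was found in 7 members (Hspa5, Hsp90b1, Dnajc3, Pdia6, Calr, Canx and Creld2) and in 0.119% of all 32851 windows of that length. CARE was found in Trib3, Asns, Chac1, Pycr1 and Herpud1 and in 3.97% of windows, and UPRE in 0 members and 0.676% of windows. Of the 7 genes with ERSE, Hspa5, Hsp90b1, Calr and Canx rose with cold over both genotypes, Pdia6 fell, and Dnajc3 and Creld2 did not pass. Among the genes with CARE, Trib3, Asns and Chac1 rose with cold over both genotypes, Herpud1 fell, and Pycr1 was not measured. A match is only a description of these letters.

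Hspa5, which encodes BiP, the main chaperone of the ER lumen, had 7.81, 8.28 and 8.13 in KO cold and 8.42, 8.36 and 8.43 in WT cold, against 7.40, 7.48 and 7.52 in KO at room temperature and 7.72, 7.69 and 7.84 in WT at room temperature. The KO arrays lay below the WT arrays at each temperature. It rose by 0.61 ± 0.13 in KO, or 1.53-fold (adjusted p = 0.00588), and by 0.65 ± 0.13 in WT, or 1.57-fold (adjusted p = 0.00449). Hsp90b1, which encodes GRP94, had 9.46, 9.94 and 9.64 in KO cold and 9.99, 9.99 and 10.00 in WT cold, against 9.47, 9.44 and 9.46 in KO at room temperature and 9.29, 9.31 and 9.44 in WT at room temperature. KO cold replicate 1 lay among the room temperature arrays, and all other cold arrays lay above them. Hsp90b1 rose by 0.65 ± 0.13 in WT (adjusted p = 0.00457), and the KO difference was 0.22 ± 0.13 (adjusted p = 0.289).

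Sdf2l1, a partner of ER co-chaperones, had 6.11, 6.45 and 6.27 in KO cold and 6.72, 7.15 and 6.91 in WT cold, against 5.84, 6.23 and 5.91 in KO at room temperature and 5.64, 5.69 and 6.15 in WT at room temperature. WT cold stood apart from the other groups. The rise in WT was 1.10 ± 0.18, or 2.15-fold (adjusted p = 0.00111), and the difference in KO was 0.28 ± 0.18 (adjusted p = 0.327). The KO response minus the WT response was -0.82 ± 0.25, with a 95% interval of -1.36 to -0.28 that is not adjusted, and it did not pass (adjusted p = 0.298).

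Dnajb9, a BiP co-chaperone (ERdj4) and a known XBP1 target, had 10.38, 10.53 and 10.54 in KO cold and 10.35, 10.06 and 10.01 in WT cold, against 8.88, 8.59 and 8.76 in KO at room temperature and 9.86, 9.32 and 9.29 in WT at room temperature. KO arrays were the highest in the cold and the lowest at room temperature. It rose by 1.74 ± 0.17 in KO, or 3.35-fold (adjusted p = 3.57e-05), and by 0.65 ± 0.17 in WT, or 1.57-fold (adjusted p = 0.0184). The WT call was lost without WT cold replicate 1 (0.0842), WT room temperature replicate 2 (0.0742) or replicate 3 (0.0708). The KO rise minus the WT rise, 1.10 ± 0.24, was the largest such difference among the members and did not pass (adjusted p = 0.162).

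Manf, a small secreted ER protein, had 4.78, 4.32 and 4.09 in KO cold and 3.88, 4.16 and 4.04 in WT cold, against 3.17, 3.43 and 2.98 in KO at room temperature and 3.48, 3.52 and 3.30 in WT at room temperature. It rose by 1.21 ± 0.18 in KO (adjusted p = 0.000616) and by 0.60 ± 0.18 in WT (adjusted p = 0.0382). The WT call was lost in 7 of the 12 leave-one-array-out fits, namely without WT cold replicates 1, 2 or 3, WT room temperature replicates 1, 2 or 3, or KO room temperature replicate 1, with adjusted p up to 0.13. It was also lost with the muscle marker covariate (0.129) and with a trended and robust spread (0.0589). Calr and Canx, the lectin chaperones of glycoproteins, rose in WT by 0.59 ± 0.13 (adjusted p = 0.00799) and 0.49 ± 0.11 (adjusted p = 0.00947), with 0.27 (adjusted p = 0.194) and 0.15 (adjusted p = 0.418) in KO. The WT call of Canx was lost with a 1.5-fold minimum.

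Pdia3, the disulfide isomerase that works with these lectins, rose in WT by 0.46 ± 0.12 (adjusted p = 0.0166). The call was lost without WT cold replicate 2 (0.066), without WT room temperature replicate 1 (0.0644) or with a 1.5-fold minimum. In KO Pdia3 differed by 0.15 (adjusted p = 0.462). Hyou1, a large ER chaperone, rose in WT by 0.55 ± 0.17 (adjusted p = 0.0436). That call was lost in 10 of the 12 fits, all but those without KO cold replicate 1 or 2, with adjusted p up to 0.138. It was also lost with cyclic loess (0.0661), median centring (0.078), the replicate block (0.0635) or a 1.5-fold minimum. In KO Hyou1 differed by 0.36 (adjusted p = 0.186), and over both genotypes it rose by 0.45 ± 0.12 (adjusted p = 0.0134).

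Pdia6, another disulfide isomerase, moved the other way, with 5.95, 6.19 and 6.61 in KO cold and 6.72, 6.69 and 6.72 in WT cold, against 6.82, 7.07 and 7.19 in KO at room temperature and 7.10, 6.90 and 7.39 in WT at room temperature. Every cold array lay below every room temperature array. Pdia6 fell by 0.78 on the log2 scale in KO (SE 0.18, adjusted p = 0.00917), and the WT difference was -0.42 ± 0.18 (adjusted p = 0.144). Dnajb11 and Dnajc3, co-chaperones of BiP, differed over both genotypes by -0.05 (95% interval -0.37 to 0.27) and 0.04 (95% interval -0.29 to 0.38), and Creld2, a secreted ER stress protein, by 0.23 (95% interval -0.11 to 0.57).

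The 3 genes of ER-associated degradation, the route that sends misfolded proteins out of the ER to the proteasome, all fell with cold over both genotypes. Of all genes 14.3% fell. Herpud1, which organises the degradation complex in the ER membrane, had 7.76, 8.29 and 8.07 in KO cold and 7.99, 8.22 and 7.90 in WT cold, against 9.06, 8.80 and 9.06 in KO at room temperature and 8.41, 9.03 and 9.06 in WT at room temperature. Every cold array lay below every room temperature array. Herpud1 fell by 0.93 in KO (SE 0.19, adjusted p = 0.00496) and by 0.80 in WT (SE 0.19, adjusted p = 0.0133). The WT call was lost without WT cold replicate 3 (0.0576), WT room temperature replicate 2 (0.057) or replicate 3 (0.054).

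Edem1, which hands misfolded glycoproteins to degradation, had 7.55, 8.34 and 8.37 in KO cold and 8.45, 8.71 and 8.36 in WT cold, against 8.99, 9.02 and 8.90 in KO at room temperature and 8.92, 9.15 and 9.0 in WT at room temperature. Cold arrays lay below room temperature arrays in both genotypes, and KO cold replicate 1 was the lowest. It fell by 0.88 in KO (SE 0.20, adjusted p = 0.00745), with a difference of -0.52 ± 0.20 in WT (adjusted p = 0.0979). With the mean of its probe sets, the other of which was dim, Edem1 differed by -0.53 in KO (adjusted p = 0.0327) and by -0.42 over both genotypes (adjusted p = 0.0124). Sel1l, the scaffold of the ubiquitin ligase that works with these factors, fell by 0.64 in KO (SE 0.15, adjusted p = 0.00922), with a difference of -0.33 ± 0.15 in WT (adjusted p = 0.164). The KO call of Sel1l was lost with the 6 arrays of that comparison alone (0.06). Over both genotypes the differences were -0.86 ± 0.14 for Herpud1 (adjusted p = 0.000439), -0.70 ± 0.14 for Edem1 (adjusted p = 0.00223) and -0.49 ± 0.11 for Sel1l (adjusted p = 0.0039).

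**Figure D3:**
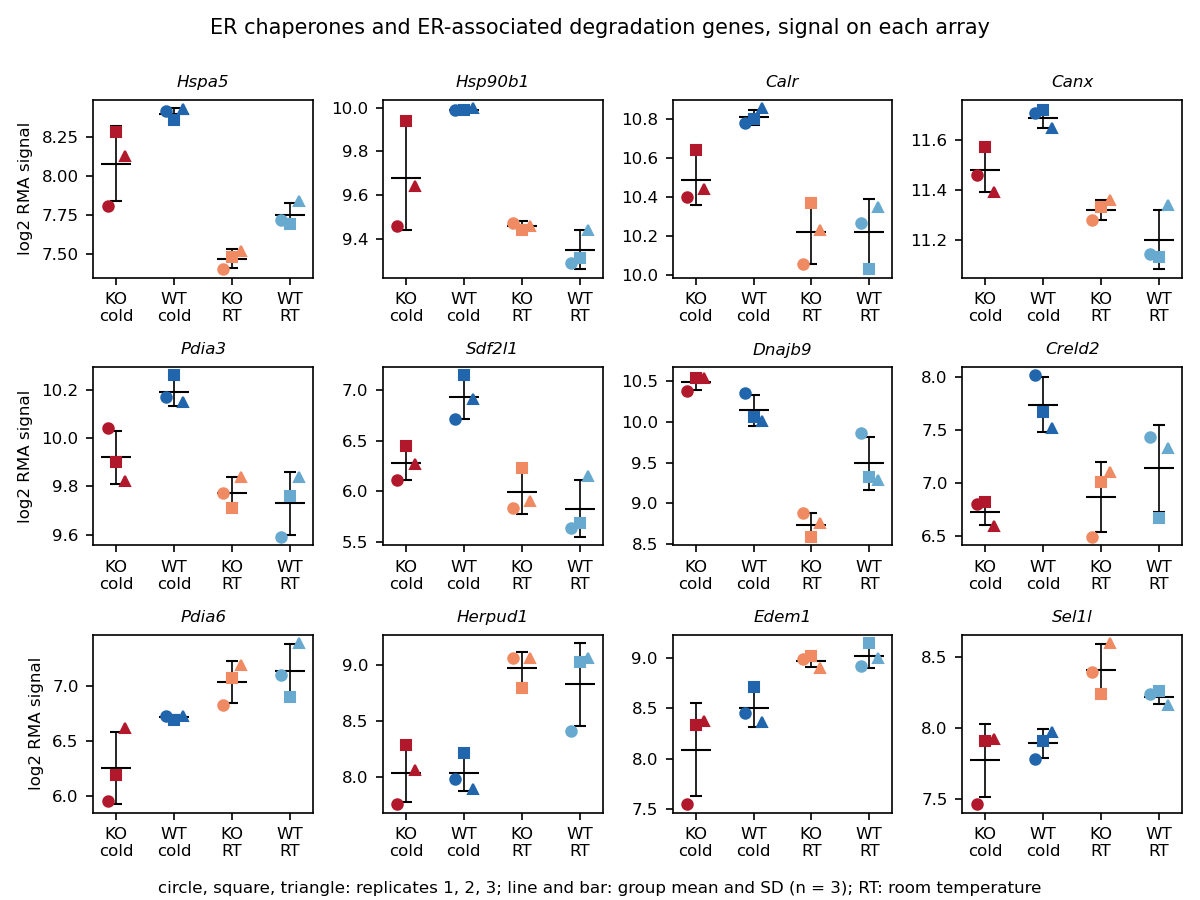
Log2 RMA signal of 12 ER chaperone, folding and degradation genes on each array, by group, with KO left of WT and cold left of room temperature (RT). Symbols are replicates 1, 2 and 3, and lines and bars are the group mean and SD (n = 3). Herpud1, Edem1 and Sel1l lie lower on cold arrays, Hspa5 lies higher on cold arrays within each genotype, and Creld2 is between 6.59 and 6.82 in KO cold against 7.52 to 8.02 in WT cold.

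Across genotypes, 12 members rose in both KO and WT (Atf4, Atf5, Psat1, Mthfd2, Aldh18a1, Slc7a1, Slc7a5, Slc3a2, Ppp1r15a, Hspa5, Dnajb9 and Manf), and Herpud1 fell in both. Of all genes 5.66% rose in both and 5.6% fell in both. No member passed in opposite directions. A further 7 passed in WT and not in KO (Trib3, Hsp90b1, Sdf2l1, Pdia3, Calr, Canx and Hyou1), and 6 passed in KO and not in WT (Atf6, Asns, Sesn2, Pdia6, Edem1 and Sel1l). The shares of all genes in those classes were 6.09% and 7.9%. The interaction, which tests the difference between the genotypes' cold responses, passed for 0 of 36 members and for 0.0271% of all genes (limma). An unadjusted p under 0.05 was found for 6 of 36 members, Dnajb9, Sdf2l1, Eif2ak3, Manf, Creld2 and Hsp90b1, and for 10.5% of all genes, so a difference between the genotypes' responses was not shown for any member.

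KO and WT differed far less than cold and room temperature did. At room temperature 0 of 36 members passed, against 0.55% of all genes (limma). The unadjusted p was under 0.05 for 8 of 36 members, against 11.4% of all genes. KO and WT arrays did not overlap for 10 members, 6 higher and 4 lower, where 17% of all genes did not overlap (9% higher, 7.97% lower). The lowest adjusted p belonged to Dnajb9, at 0.0783, with a mean of 8.74 ± 0.14 in KO and 9.49 ± 0.32 in WT (SD, n = 3 each) and a difference of -0.75 ± 0.17. Asns differed by -0.60 ± 0.18 (adjusted p = 0.194), and Xbp1 differed by 0.53 ± 0.20 (adjusted p = 0.322).

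In the cold, again 0 of 36 members passed, against 0.911% of all genes. The unadjusted p was under 0.05 for 15 of 36 members, against 14.4% of all genes (limma). KO and WT arrays did not overlap for 15 members, where 20.6% of all genes did not overlap. Of these, 4 were higher in KO (background 9.55%) and 11 lower (background 11.1%), and 10 of the 11 were among the 13 chaperones and folding enzymes: Hspa5, Hsp90b1, Dnajb11, Sdf2l1, Pdia3, Pdia6, Calr, Canx, Hyou1 and Creld2. The median KO minus WT difference of the 13 was -0.33 in the cold and -0.06 at room temperature, and 11 of 13 were below 0 in the cold. Over all 22180 genes the median was 0.01 at each temperature, and 10732 were below 0 in the cold. A further list of 27 measured genes of ER protein folding and translocation had 23 below 0 in the cold, with a median of -0.15. At room temperature that list had 15 below 0, with a median of -0.02, and 0 of its genes passed at either temperature. Genes measured on the same arrays are not separate observations. Without KO cold replicate 1, the array with the lowest values for most members, the median of the 13 was -0.26 and the same number, 11 of 13, were below 0. Of the 9 B and plasma cell markers measured, 2 were lower in KO in the cold, Jchain by -1.45 ± 0.25 (adjusted p = 0.0184) and Ighm by -1.29 ± 0.22 (adjusted p = 0.0211), while 4 of the 9 lay above 0 and the list's median was -0.08. At room temperature, where the chaperone median was near 0, Jchain differed by -1.06 (adjusted p = 0.0904) and Ighm by -0.81 (adjusted p = 0.159), and the list's median was -0.12. The part of these markers in the chaperone values was not tested.

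Creld2, singled out after its values were seen, had the lowest adjusted p in the cold. Its signals were 6.80, 6.82 and 6.59 in KO cold and 8.02, 7.67 and 7.52 in WT cold, against 6.49, 7.01 and 7.10 in KO at room temperature and 7.43, 6.67 and 7.33 in WT at room temperature. KO cold lay below WT cold without overlap, and the room temperature groups overlapped. The difference in the cold was -1.0 ± 0.22, a 2.01-fold lower signal in KO with a 95% interval of -1.49 to -0.52, and did not pass (adjusted p = 0.0609). The call was gained without WT room temperature replicate 2 (0.0348), and the 12 leave-one-array-out fits gave -1.11 to -0.86. Leaving out an array of KO cold changed which members passed: Slc7a1, Slc7a5 and Ppp1r15a were higher without replicate 1 (1.25, 1.19 and 1.03, with adjusted p of 0.038, 0.0499 and 0.0122), and Atf5 and Hyou1 were lower without replicate 2 (-0.92 and -0.81, with adjusted p of 0.0498 and 0.0344).

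Averaged over both temperatures, Slc7a1 was the single member that passed, 1 of 36 or 2.78%, against 1.63% of all genes (0.794% higher). Its KO arrays were higher by 0.86 ± 0.18, or 1.82-fold (adjusted p = 0.0351). The difference was 1.01 ± 0.26 in the cold (adjusted p = 0.0914) and 0.72 ± 0.26 at room temperature (adjusted p = 0.291). Macrophage markers moved with genotype too. Of the 8 measured, Cd68 (0.94 ± 0.14, adjusted p = 0.00674) and Mrc1 (0.74 ± 0.14, adjusted p = 0.0238) were higher in KO over both temperatures, and all 8 differences lay above 0. Both also passed in the cold, where 4 of 8 lay above 0, and at room temperature 0 of 8 passed and 8 of 8 lay above 0. The part of the macrophage markers in the genotype differences was not tested. The Slc7a1 call was lost in 9 of the 12 leave-one-array-out fits, all but those without KO cold replicate 1, WT cold replicate 1 or KO room temperature replicate 1, with adjusted p up to 0.0869 and differences of 0.75 to 0.99. Slc7a5 differed by 0.77 ± 0.18 (adjusted p = 0.0619), and passed without KO cold replicate 1 (0.0226) or WT room temperature replicate 1 (0.0208). Slc3a2, which pairs with Slc7a5, differed by -0.10 ± 0.09 (95% interval -0.30 to 0.10). Hyou1 differed by -0.52 ± 0.12 (adjusted p = 0.053) and Creld2 by -0.64 ± 0.16 (adjusted p = 0.069), in the opposite direction to Slc7a1 and Slc7a5. Hyou1 passed without KO cold replicate 1 (0.0441) or 2 (0.0157), Creld2 without WT room temperature replicate 2 (0.0253), and Ppp1r15a, at 0.66, without KO cold replicate 1 (0.00802).

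**Figure D4:**
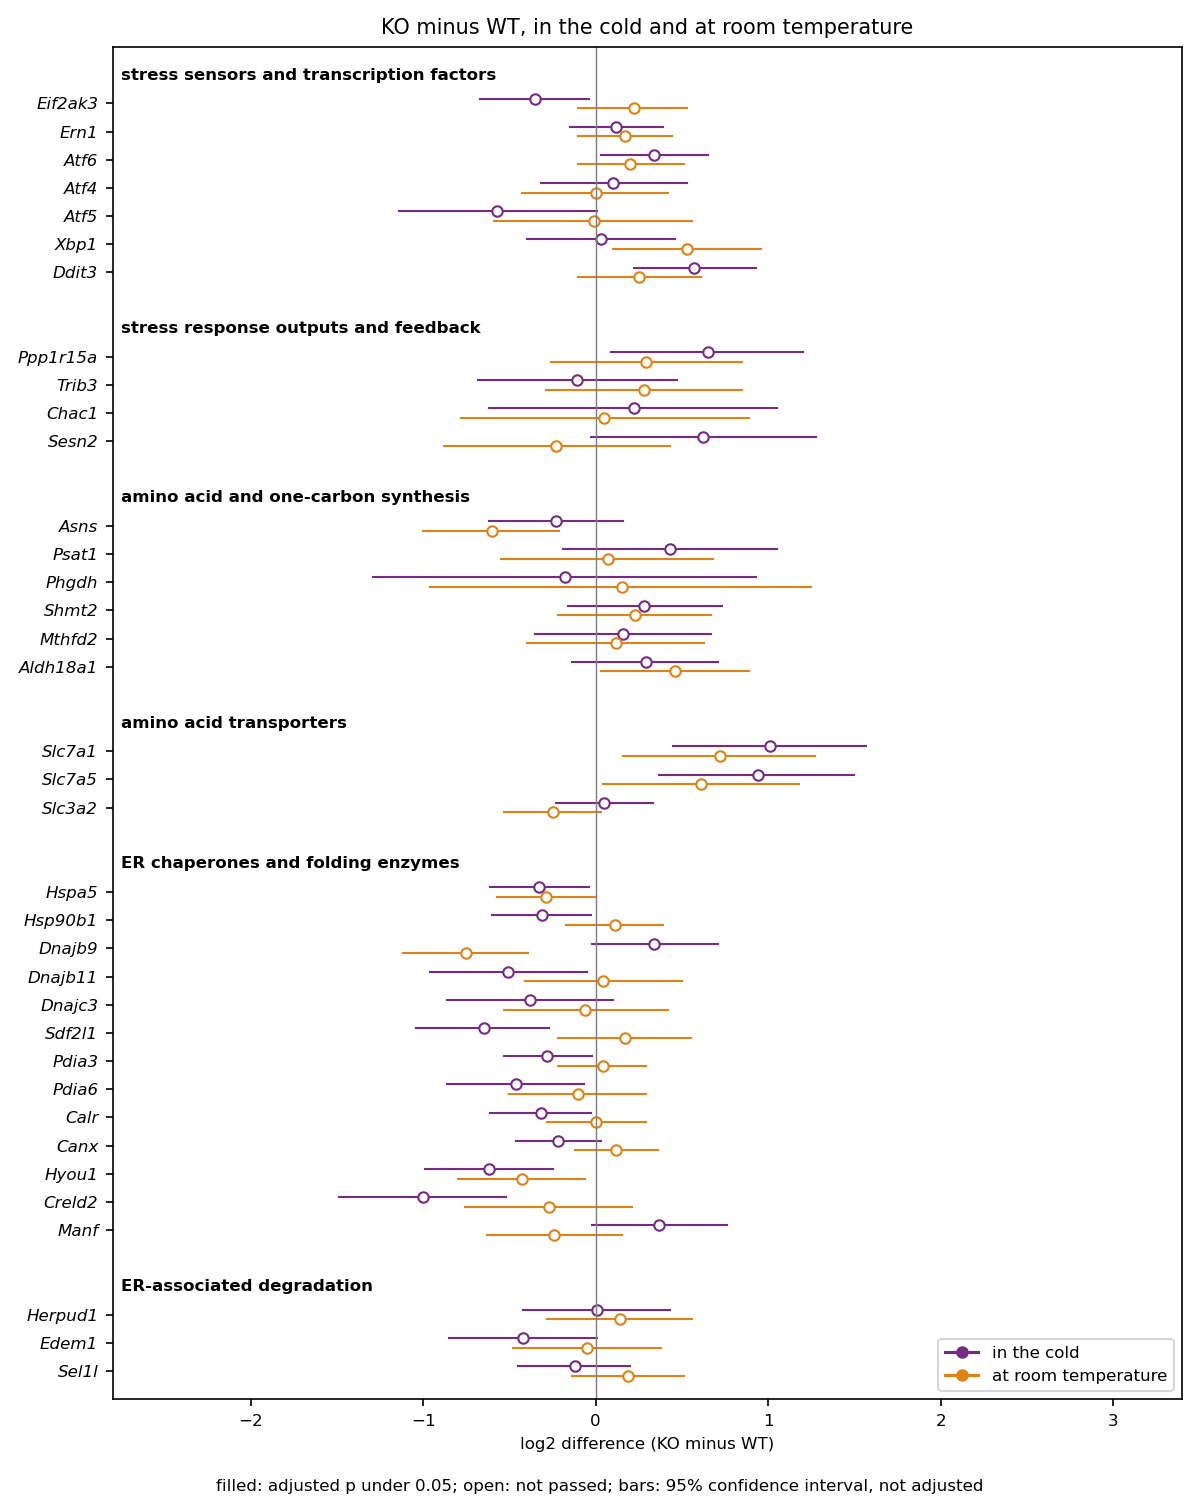
KO minus WT for each measured member, on the log2 scale, in the cold and at room temperature. Points are differences of group means, bars are 95% confidence intervals that are not adjusted, and all points are open because 0 members passed at either temperature. Slc7a1 and Slc7a5 lie to the right of 0 at both temperatures, and 11 of 13 chaperones lie to the left of 0 in the cold, against 10732 of all 22180 genes.

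Further lists give the rest of the pathway. Of 28 more genes of ATF4 and the integrated stress response, 26 were measured, and over both genotypes 8 rose and 5 fell with cold, against 12.9% and 14.3% of all genes, with a median difference of 0.11 against -0.01 over all genes. The 4 with the smallest p moved in both directions. Slc38a2, a carrier of neutral amino acids, averaged 10.63 in KO cold and 10.29 in WT cold, against 9.11 in KO at room temperature and 8.96 in WT at room temperature, a rise of 1.43 ± 0.12 (adjusted p = 5.32e-06). Atf3, a stress factor downstream of ATF4, averaged 9.35 in KO cold and 8.25 in WT cold, against 6.07 in KO at room temperature and 6.14 in WT at room temperature, a rise of 2.69 ± 0.29 (adjusted p = 2.63e-05). Slc1a5, the glutamine carrier, and Eif4ebp1, an inhibitor of translation initiation, fell, at -1.55 ± 0.17 (adjusted p = 2.45e-05) and -1.11 ± 0.13 (adjusted p = 5.55e-05), so that amino acid carriers of the pathway did not all move one way.

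Between genotypes, Vldlr, a lipoprotein receptor of that list, was higher in KO in the cold by 1.18 ± 0.20 (adjusted p = 0.02), with means of 8.87 in KO and 7.69 in WT. With cold Vldlr fell in WT, at -1.56 ± 0.20 (adjusted p = 0.000294), and its KO mean at room temperature was 8.88. The interaction passed for 0 of the 26 genes measured in that list (lowest adjusted p = 0.088, limma). Ppp1r15b, the constant partner of the phosphatase that Ppp1r15a brings to eIF2, was lower in KO over both temperatures, at -0.56 ± 0.12 (adjusted p = 0.0361). It rose with cold by 0.93 ± 0.17 in KO (adjusted p = 0.00199) and by 0.85 ± 0.17 in WT (adjusted p = 0.00382).

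Of 28 more genes of ER protein folding and translocation, 27 were measured, and 5 rose and 6 fell with cold over both genotypes, with a median of 0.09, where 12.9% of all genes rose and 14.3% fell. Pdia5, a further disulfide isomerase, averaged 4.43 in KO cold and 4.87 in WT cold, against 6.13 in KO at room temperature and 6.87 in WT at room temperature, a difference of -1.85 ± 0.13 (adjusted p = 1.29e-06). It was also lower in KO over both temperatures, at -0.59 ± 0.13 (adjusted p = 0.0467). Sil1, the exchange factor of BiP, and Dnajc10, a disulfide-reducing co-chaperone, fell, at -1.06 ± 0.17 (adjusted p = 0.000421) and -0.62 ± 0.13 (adjusted p = 0.00292). Sec24d, a cargo adaptor of the vesicles that leave the ER, rose by 0.83 ± 0.11 (adjusted p = 0.000133).

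Of 26 more genes of ER-associated degradation and its regulators, 25 were measured, and 6 rose and 6 fell over both genotypes, with a median of -0.02, beside the same 12.9% and 14.3% of all genes. Syvn1, the ubiquitin ligase HRD1 that Sel1l scaffolds, averaged 7.71 in KO cold and 7.69 in WT cold, against 7.0 in KO at room temperature and 7.16 in WT at room temperature. It rose by 0.62 ± 0.09 (adjusted p = 0.000143), opposite in direction to Sel1l. Ubxn4 and Ube2j1, a membrane recruiter of the p97 extraction machine and a ubiquitin-conjugating enzyme of the ER, rose by 1.02 ± 0.09 (adjusted p = 8.29e-06) and 0.67 ± 0.09 (adjusted p = 0.00011). Creb3l2, an ER-bound transcription factor, fell, at -0.74 ± 0.10 (adjusted p = 0.000108).

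Casp12, an ER-associated caspase of rodents, gave the one call of these lists at room temperature between genotypes. It averaged 4.93 in KO cold and 4.83 in WT cold, against 6.48 in KO at room temperature and 4.66 in WT at room temperature. KO was higher than WT at room temperature by 1.82 ± 0.24, or 3.53-fold (adjusted p = 0.00661). Casp12 fell with cold in KO, at -1.55 ± 0.24 (adjusted p = 0.000837). The interaction passed for 0 of the 25 genes measured in its list (lowest adjusted p = 0.118, limma).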

How the data were processed

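The 12 brown fat RNA samples were hybridised to whole-transcript arrays, 1 each. Per the labels' protocols, the arrays took biotinylated cDNA prepared out of 400 ng total RNA. Per the submitters' processing notes oligo, RMA and limma were used, and versions are not given in the sources used here. The deposited values are log2 signals, which the authors made with RMA, a method that corrects background, equalises the arrays' distributions and gives 1 value per probe set. No header states the log scale, which was inferred from the range of values. Precision is limited by 3 arrays per group.

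Of 41345 probe sets, 23521 carried exactly 1 symbol, 1814 several and 16010 none, and the brightest of a gene's probe sets was kept for 1082 genes with more than 1. Dim genes were not removed. The analysis used limma 3.58.1 (R 4.3.3): group means over the 12 arrays, eBayes moderation and 7 comparisons. Tests were two-sided, adjusted by Benjamini-Hochberg over 22180 genes, at a threshold of 0.05, and ± is the standard error unless marked SD. Replicate numbers were not taken as pairs, because the labels do not say that a number marks a shared animal, litter or day. Deviations of same-numbered arrays correlated at -0.31 to 0.26, which does not exclude such sharing. The fit was run on simulated data with independent normal noise and known shifts on the cold arrays, and only the averaged cold comparison was checked. Such data meet the assumptions of the model, so the run does not check the genotype or interaction comparisons or linked arrays. The members, lists and tests were chosen with earlier results of these data known. Per-array values are given for the 20 members with the smallest p, and for Atf4, Atf6, Ern1, Eif2ak3, Xbp1, Hspa5 and Ddit3. From each further list, up to 4 genes with the smallest p among those that passed were named in each comparison described. Creld2, Pdia6 and the members named under left-out arrays were chosen after their values were seen.

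Alternatives were averaged probe sets per gene, a floor of 5 on mean signal, cyclic loess, median centring, trended robust moderation, weighted arrays, a replicate block, a 1.5-fold minimum, only those 6 arrays being compared, a muscle marker covariate, and leaving out each array. The neutrophil marker mean as a covariate was added after seeing the data.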

Additional observations from a re-analysis of the deposited data

How the results depend on the processing

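Over the 72 pairs of gene and comparison recomputed (those that passed, and 4 others between genotypes), no direction turned in the settings run. That choice made a turn unlikely, because these pairs had passed or lay near the threshold. Other pairs, with differences near 0 among them, were not recomputed. Of the values of single members under other settings, 1481 stayed on their side of the threshold, 69 no longer passed and 14 newly passed. With 1 array left out, members past the threshold numbered 0 to 0 for KO against WT at room temperature, 0 to 3 in the cold, 0 to 4 over both temperatures, 18 to 21 for cold in KO, 15 to 22 for cold in WT, 28 to 29 for cold over both and 0 to 0 for the interaction. Over the other settings, cold passed for 16 to 22 members in KO, 17 to 24 in WT and 20 to 30 over both. The 20 came with the 1.5-fold minimum, under which Atf6, Ern1, Hsp90b1, Pdia3, Calr, Canx, Hyou1 and Sel1l no longer passed over both genotypes. The genotype counts moved more, and the cause was not tested. With genes of at least 5 in mean signal, which tests fewer genes, 1 member passed at room temperature (Dnajb9), 2 in the cold (Slc7a1, Creld2) and 5 over both temperatures (Slc7a1, Slc7a5 and Ddit3 higher, Hyou1 and Creld2 lower). A trended and robust spread gave 1 (Dnajb9), 1 (Creld2) and 4 (Slc7a1, Slc7a5, Hyou1, Creld2). Over both temperatures cyclic loess gave 2 (Slc7a1, Hyou1), array weights gave 2 (Slc7a1, Slc7a5), and the replicate block gave 0, with Slc7a1 at an adjusted p of 0.069. Whether a replicate number marks a shared litter or day is unknown. Correlations over 0.1 were found for 3 of 18 same-number pairs and 12 of 36 others, which cannot settle it with 3 arrays per group. The muscle covariate gave 2 in the cold (Slc7a1, Creld2). Median centring shifted the cold difference of all genes by -0.12 in KO and by -0.08 over both genotypes. Under it Pdia3 (adjusted p 0.0731) and Canx (0.0516) no longer passed over both genotypes.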

Other observations

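Probe sets outside the rule gave these values. The probe set annotated to both Pdia4, a disulfide isomerase, and Mir704, a microRNA, averaged 2.81 in KO cold and 2.83 in WT cold, against 3.39 in KO at room temperature and 3.35 in WT at room temperature. Its cold difference was -0.55 ± 0.10 (adjusted p = 0.00159 over 23522 probe sets), at a signal of 3.10 near the array median. A second, dim probe set of Edem1, with a mean signal of 1.54, differed by -0.15 ± 0.14 with cold (adjusted p = 0.501), whereas the bright one fell.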
